A study of Mus musculus with 27 samples.

Results

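The response of mESCs to loss of Gas41 was set beside the response of the same cells to differentiation as embryoid bodies (EBs), gene by gene. The question behind the comparison was how far the expression change after Gas41 knockdown (KD) is the change these cells undergo when they leave the pluripotent state. Of the 27 samples of the series, the 12 RNA-seq libraries of these arms were used, 8 from the KD experiment and 4 from the EB experiment. All came from J1 mESCs, a male mouse embryonic stem cell line. KD cells carried a lentiviral shRNA against Gas41, either shGas41-1 (3 libraries) or shGas41-2 (2 libraries), and their controls carried a non-targeting shRNA (shNT, 3 libraries). They were selected with puromycin and harvested 8 days after infection. The EB libraries were all made from cells with the control shRNA, so none of them lacks Gas41. At day 0 (2 libraries) these cells were undifferentiated and grown with LIF on gelatin, and at day 6 (2 libraries) they had grown as aggregates in low-attachment plates without LIF. The KD effect was taken as the 5 KD libraries against shNT and the EB effect as day 6 against day 0. The 2 effects share no library.

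Gas41, whose gene symbol is *Yeats4*, reads acetylated histones through its YEATS domain and belongs to the complexes that place the histone variant H2A.Z in chromatin. Naive mESCs are held in self-renewal by LIF, BMP and a network of transcription factors. In EBs without LIF this network is shut down, cells pass through a primed epiblast-like state, and primitive streak, mesoderm, endoderm and neural programs follow in different cells of the aggregate. A day 6 EB is therefore a mixture, and in bulk RNA fewer cells of a type and less RNA per cell cannot be told apart.

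Both shRNAs match the annotated *Yeats4* gene (ENSMUSG00000020171, chr10:116652198-116661563 of mm9, minus strand) without mismatch. The targeted sequences are shown because the KD rests on them. That of shGas41-1 (chr10:116652513-116652533) lies in the 3′ UTR, and that of shGas41-2 (chr10:116659320-116659340) lies in a coding exon.
shGas41-1: gtagcattccacgacgttaag
shGas41-2: atcgttaagccaatcgtttat

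*Yeats4* was at 61.2, 53.1 and 50.9 CPM (read counts divided by the TMM-scaled size of each library) in the shNT libraries. It was at 3.46, 4.39 and 5.10 CPM with shGas41-1 and at 8.81 and 7.95 CPM with shGas41-2. The EB libraries held 41.6 and 44.2 CPM at day 0 and 47.1 and 52.5 CPM at day 6. All 5 KD libraries were far below all others, with a log2 fold change of -3.21 ± 0.24 (SE; n = 5 against 3; edgeR's quasi-likelihood test, FDR 3.97e-05). In EBs the change was 0.21 ± 0.32 (n = 2 against 2; edgeR, FDR 0.609), so no fall of *Yeats4* was detected in these day 6 libraries. The paper reports that Gas41 fell during EB formation of J1 cells, in mRNA by RT-PCR and in protein by western blot.

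The libraries held between 59224537 and 81524773 counts, at which 3 counts amount to between 0.0373 and 0.0493 CPM. That floor covers counting error only, since reads are not independent molecules. Replicates differed by more than sampling noise in every group (chi-square per degree of freedom 27.3 to 220 over genes), so none was counted as a repeat deposit. The undifferentiated controls of both experiments were close, with 33 of 19613 genes called between EB day 0 and shNT. Of these, 7 were also called in the KD and 2 in both KD and EB. The labels do not say whether replicates came from separate cultures, and p-values then measure only the spread between these samples.

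Many of the genes changed by Gas41 KD also changed in EBs, but without a common direction. A gene was called at an absolute log2 fold change of at least 1 and an FDR of at most 0.05 in edgeR's quasi-likelihood test with Benjamini-Hochberg adjustment over 19613 genes. In the KD 1487 genes rose (7.58% of those tested) and 340 fell (1.73%). In EBs 3052 genes rose (15.6%) and 2962 fell (15.1%). Of the genes raised by the KD, 350 also rose in EBs (23.5% of the KD rises and 11.5% of the EB rises), while 392 fell in EBs (26.4% of the KD rises and 13.2% of the EB falls). The other 745 (50.1%) were not called in EBs. Of the genes lowered by the KD, 115 also fell in EBs (33.8% of the KD falls and 3.88% of the EB falls), 74 rose (21.8% and 2.42%) and 151 were not called (44.4%). Genes raised by the KD were thus lowered in EBs about as often as raised there, and both shares were above the 15.1% and 15.6% of all genes tested. Across all 19613 genes the log2 fold changes of the 2 effects had a Pearson r of 0.036 and a Spearman rho of -0.031, a description over genes that are not independent of each other.

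**Figure D1:**
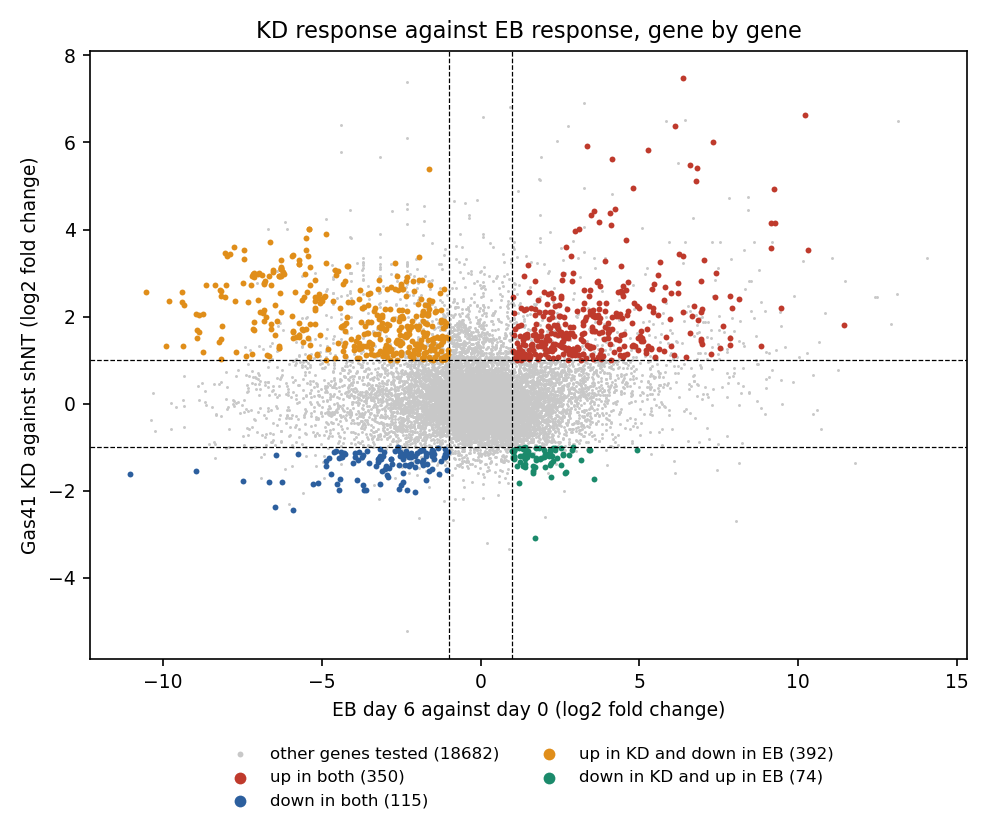
Each point is 1 of the genes tested, with its log2 fold change at EB day 6 against day 0 on the horizontal axis and in the Gas41 KD against shNT on the vertical axis; dashed lines mark a log2 fold change of 1 in either direction. The genes called in both fill all 4 corners, with 350 up in both, 392 up in the KD and down in EBs, 115 down in both and 74 down in the KD and up in EBs.

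The difference between the effects was tested directly in the same fit, and 8982 genes (45.8%) differed in effect between KD and EB at an FDR of at most 0.05. Of the 745 genes raised by the KD and not called in EBs, 478 also passed this test and are described below as raised in the KD alone, and for 267 the difference was not shown. Of the 151 genes lowered by the KD and not called in EBs, 87 passed it. By the same rule 2144 genes rose and 2228 fell in EBs alone.

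The size of each class depended on which libraries entered the fit. With shGas41-2 alone, 161 genes were up in both and 246 were up in the KD and down in EBs, and with shGas41-1 alone they were 421 and 372. Without shNT library 3, 232 genes were up in both, and without library 2 of EB day 0 or library 3 of day 6, 248 and 255 were up in the KD and down in EBs. Genes down in the KD and up in EBs numbered 112 without shNT library 1 and 38 without shNT library 3.

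The level at which a gene was expressed in undifferentiated cells bore on which EB call its rise in the KD was joined to. Below 0.1 CPM in the 5 controls, 99 of 347 genes raised by the KD rose in EBs (28.5%) and 35 fell (10.1%). In that range 39.2% of all genes tested rose in EBs and 5.67% fell, and these genes passed the filter on low counts through their higher group, which raises both shares. Between 0.1 and 1 CPM, 187 of 676 rose in EBs (27.7%, against 21.3% of all genes at that level) and 217 fell (32.1%, against 23.5%). Between 1 and 10 CPM, 58 of 284 rose (20.4%, against 21.2%) and 99 fell (34.9%, against 20.4%). Between 10 and 100 CPM, 6 of 125 rose (4.80%, against 8.03%) and 36 fell (28.8%, against 9.85%). Above 100 CPM none of 55 rose and 5 fell (9.09%, against 9.52%). Above 1 CPM the share of KD-raised genes that rose in EBs was thus close to or under that of all genes, and the share that fell was above that of all genes up to 100 CPM.

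**Figure D2:**
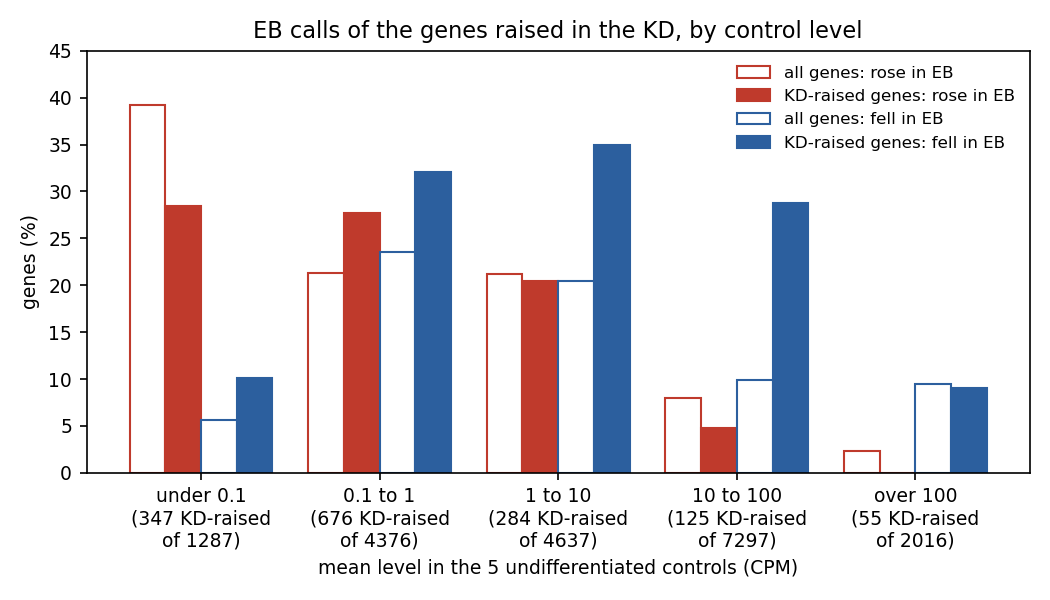
Genes are grouped by their mean CPM in the 5 undifferentiated control libraries, and the bars give the percentage of genes that rose (red) or fell (blue) in EBs, open for all genes tested in the group and filled for those raised in the KD. Filled blue bars stand above open ones in the 4 groups under 100 CPM, and filled red bars stand above open ones only between 0.1 and 1 CPM.

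KD rises were also read along the size of the EB change. Of 344 genes called with an EB log2 fold change of 5 or more, 73 rose in the KD (21.2%) and none fell, with a median KD log2 fold change of 1.15. Of 575 genes with an EB rise between 3 and 5, 114 rose in the KD (19.8%) and 5 fell, with a median of 0.56. Of 2133 genes with an EB rise between 1 and 3, 163 rose in the KD (7.64%, against 7.58% of all genes) and 69 fell, with a median of -0.03. At the other end, 222 of 1050 genes with an EB fall of 3 or more rose in the KD (21.1%) and 52 fell (4.95%), with a median of 0.26. The median level of the genes in the 5 undifferentiated controls was 0.0429 CPM for EB rises of 5 or more and 0.892 CPM for EB falls of 3 or more, against 8.24 CPM over all genes. Of all genes under 0.1 CPM in these controls, 347 of 1287 rose in the KD (27%). Genes at that level could pass the filter on low counts through a high KD group, which raises this share. It is thus not a like background for the 21.2% among genes with an EB rise of 5 or more. Only 2 of the 1287 were called as fallen, and a fall from so few counts could hardly be called. The absence of KD falls among the largest EB rises therefore shows no direction, and their median KD change rests on few counts in the controls. The share of genes that rose in the KD was 15.4% between 0.1 and 1 CPM (676 of 4376). It was 6.12% between 1 and 10 CPM, 1.71% between 10 and 100 CPM and 2.73% above 100 CPM.

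The EB genes were called on these same day 0 and day 6 libraries, which fixes the direction and raises the size of their day 6 medians. Beside those medians the KD differences over the whole of the EB genes were small. The genes that rose in EBs had a median log2 difference from shNT between 0.00168 and 0.111 in the 5 KD libraries, set against 1.40 and 1.45 from day 0 in the day 6 libraries. The shNT libraries lay between -0.0434 and 0.0509, and libraries 1 and 2 of shGas41-1 were above that range, at 0.0956 and 0.111. The genes that fell in EBs had a median difference between 0.0384 and 0.0847 in the KD libraries, set against -1.10 and -1.20 at day 6. For the EB-fallen genes all 5 KD libraries were above the shNT libraries, which lay between -0.0321 and 0.0258. The undifferentiated day 0 libraries lay at 0.0441 and -0.0441 around their own mean. Libraries 2 and 3 of shGas41-1, at 0.0431 and 0.0384, were within that spread of controls.

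**Figure D3:**
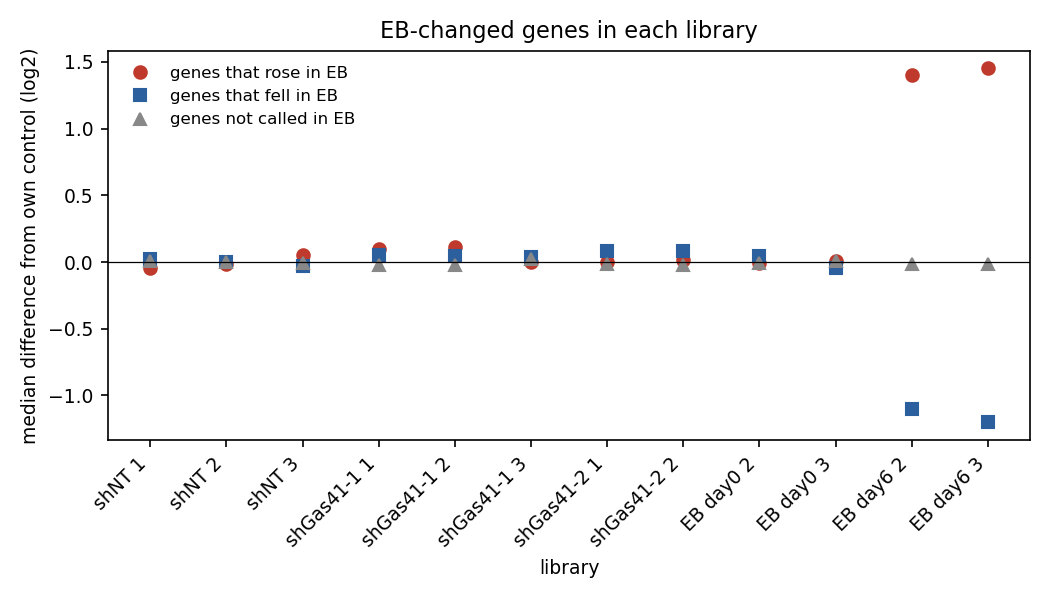
For each of the 12 libraries, points give the median over genes of the log2 difference, computed on CPM plus 0.5, from the mean of shNT (KD experiment) or day 0 (EB experiment). The 2 day 6 libraries, on which these genes were called, stand at 1.40 and 1.45 for the EB-risen genes and at -1.10 and -1.20 for the EB-fallen genes. The 5 KD libraries lie between 0.00168 and 0.111 for the EB-risen genes and between 0.0384 and 0.0847 for the EB-fallen genes.

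The 350 genes raised in both were mostly silent or nearly so in undifferentiated cells. Their median level was 0.24 CPM in shNT and 0.71 CPM in the KD, and 0.30 CPM at day 0 and 2.51 CPM at day 6, and 83.7% were under 1 CPM in shNT. The median KD log2 fold change was 1.63 and the median EB change 3.23. The KD change was the larger of the 2 for 58 genes, and the median KD level was 33.7% of the day 6 level of the same gene. In 127 of them neither control group reached the count minimum in all of its libraries. Such genes could enter the test because another group was high. The class was called on these same libraries, so a class median above shNT in the KD follows from the call. By library it was 0.82, 0.80 and 0.61 log2 above shNT with shGas41-1 and 0.52 and 0.54 with shGas41-2.

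*Gata3*, a transcription factor of the trophoblast lineage, rose to a similar level in both. It was at 0.18, 0.0985 and 0.0809 CPM in shNT, at 3.20, 2.34 and 1.41 CPM with shGas41-1 and at 1.21 and 1.06 CPM with shGas41-2, and in the EB experiment at 0.402 and 0.242 CPM on day 0 and 1.30 and 3.80 CPM on day 6. The groups did not overlap in either experiment. The KD log2 fold change was 3.96 ± 0.56 (n = 5 against 3; edgeR, FDR 0.000408) and the EB change 2.97 ± 0.63 (n = 2 against 2; edgeR, FDR 0.00152), a difference of 0.99 ± 0.84 (edgeR, FDR 0.361). *Gcm1*, which drives formation of placental syncytiotrophoblast, also changed by like amounts, 2.27 and 2.48 on the log2 scale. *Foxa1*, a pioneer factor of endoderm, rose by 1.49 and 2.07. The EB rise of *Gcm1* missed the threshold without library 3 of day 0 or library 2 of day 6 (edgeR, FDR 0.053 and 0.0808). The KD rise of *Foxa1* missed it without shNT library 2 and with shGas41-2 alone (edgeR, FDR 0.0874 and 0.107), and its EB rise without library 2 of day 0 (edgeR, FDR 0.0504).

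*Evx1*, a homeobox factor of the primitive streak, rose in both but by far more in EBs. It was at 0.834, 1.42 and 0.715 CPM in shNT, at 4.39, 11.9 and 3.22 CPM with shGas41-1 and at 3.91 and 10.3 CPM with shGas41-2. At day 0 it was at 1.26 and 1.59 CPM and at day 6 at 76.5 and 136 CPM. Every KD library was above every control, and the KD reached a small share of the day 6 level. The KD log2 fold change was 2.77 ± 0.48 (n = 5 against 3; edgeR, FDR 0.00152) and the EB change 6.22 ± 0.68 (n = 2 against 2; edgeR, FDR 6.17e-06), and the difference between them passed the test (edgeR, FDR 0.00197).

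*Lef1*, the DNA-binding partner of beta-catenin in Wnt signalling, followed the same pattern, at a mean of 1.19 CPM in shNT and 5.11 CPM in the KD against 0.853 CPM at day 0 and 70.6 CPM at day 6. *Cdx2*, a factor of trophectoderm and of the posterior embryo, went from 0.217 to 1.01 CPM in the KD and from 0.214 to 22.3 CPM in EBs. *Msx1*, a homeobox target of BMP signalling, went from 0.606 to 1.86 CPM in the KD and from 0.661 to 64.2 CPM in EBs. *Fgf5*, the growth factor that marks primed epiblast, showed the widest gap, from 0.114 to 0.395 CPM in the KD and from 0.0722 to 207 CPM in EBs. The KD rise of *Fgf5* had an FDR of 0.0167, and of 0.0884 without shNT library 3, where it was lowest. *Msx1* likewise missed the threshold without shNT library 1 or 3 (edgeR, FDR 0.0628 and 0.105). With shGas41-2 alone the KD rises of *Fgf5* and *Msx1* both missed it (edgeR, FDR 0.117 and 0.233).

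Among the genes named by the size of both rises were several at a few counts in the controls. *Gbp2*, an interferon-induced GTPase, had 1 count in the 3 shNT libraries and 75 in the 5 KD libraries, a ratio of 41.3 with a counting interval of 7.19 to 1650 (exact binomial, 95%). *Fat3*, an atypical cadherin, had 2 and 50 counts, a ratio of 13.8 (3.62 to 117). *Cyp26a1*, which degrades retinoic acid, had 3 and 69 counts, a ratio of 12.7 (4.16 to 63). All 3 stayed under 0.4 CPM in every KD library, whereas at day 6 they averaged 22.8, 13.3 and 74.9 CPM. Without shNT library 3 the KD rises of *Gbp2* and *Cyp26a1* missed the threshold (edgeR, FDR 0.0521 and 0.0865). They missed it with shGas41-2 alone too (edgeR, FDR 0.103 and 0.191). *Duxbl*, a double homeobox gene, was better measured, at 0.514 CPM in shNT and 3.34 CPM in the KD, and at 0.514 CPM at day 0 and 7.13 CPM at day 6.

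The 392 genes raised in the KD and lowered in EBs were the largest of the classes called in both. Their median level was 0.60 CPM in shNT and 2.42 CPM in the KD, and in EBs it went from 0.53 to 0.0531 CPM. The median KD log2 fold change was 1.79 and the median EB change -3.45. At day 6, 171 of them had 3 counts or fewer, the level below which a transcript is not measured at this depth. In 75 of them neither control group reached the count minimum in all of its libraries, and such genes could enter the test because another group was high. At the median of the class the KD libraries were 1.22, 1.11 and 1.28 log2 above shNT with shGas41-1 and 1.12 and 0.96 with shGas41-2. That these medians lie above shNT again follows from the call. The shNT libraries themselves lay at 0.18, -0.04 and -0.19, with library 1 the highest.

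*Adipoq*, which encodes the fat-cell hormone adiponectin, was at 0.834, 0.901 and 0.418 CPM in shNT, at 5.36, 10.1 and 5.97 CPM with shGas41-1 and at 6.87 and 9.38 CPM with shGas41-2. It was at 0.482 and 0.667 CPM at day 0 and at 0 and 0.0152 CPM at day 6. The groups did not overlap, and the KD log2 fold change was 3.40 ± 0.31 (n = 5 against 3; edgeR, FDR 6e-05). In EBs 80 counts fell to 1, a ratio of 75.1 (13.1 to 3000, exact binomial 95% counting interval). *Mgat4c*, an N-glycan glycosyltransferase, rose from a mean of 0.256 to 2.67 CPM in the KD and fell from 57 counts to 1 in EBs. *Osta*, a subunit of a bile acid transporter, rose from 0.43 to 2.83 CPM and fell from 54 counts to 1. The deubiquitinase *Dub1a* (9.07 CPM in the KD), *Ankrd22* (4.96 CPM) and *Trim43b* (2.88 CPM) completed the 6 largest changes of this class. *Dub1a* and *Trim43b* belong to families of near-identical copies whose reads the counting could split. The EB fall of *Dub1a* (edgeR, FDR 0.0499) lay between -3.62 and -7.82 on the log2 scale with 1 EB library left out. It missed the threshold with another scaling of the libraries (edgeR with RLE scaling, FDR 0.0509). With shGas41-1 or shGas41-2 alone and on halved counts it also missed the threshold (edgeR, FDR 0.0523, 0.0542 and 0.103). Without library 2 of day 0 or library 3 of day 6 the EB falls of *Ankrd22* (edgeR, FDR 0.1 and 0.0761) and *Trim43b* (0.116 and 0.103) missed it too.

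Genes of the 2-cell-like state, a rare and transient state of mESC cultures that resembles the early embryo, stood in this class. Of 8 tested, all 8 rose in the KD and 7 fell in EBs, with a median KD log2 fold change of 2.29 and a median EB change of -8.04, beside medians of 0.0128 and -0.0158 over all genes tested. *Zscan4c*, a telomere-associated zinc finger gene of that state, was at 91.4, 16.7 and 11.2 CPM in shNT. It was at 253, 147 and 258 CPM with shGas41-1 and at 204 and 85.6 CPM with shGas41-2, and it fell in EBs from 20.8 and 10.8 CPM (day 0) to 0.0454 and 0 CPM (day 6). The KD and shNT groups overlapped, since shNT library 1 was above shGas41-2 library 2. The KD log2 fold change was 2.26 ± 0.61 (n = 5 against 3; edgeR, FDR 0.0169), but the FDR was 0.114 with shGas41-2 alone, 0.0728 without shNT library 2 and 0.0613 without shNT library 3. All 8 genes were called without shNT library 1 too (median 3.82), but 2 of 8 were called without shNT library 2 or 3 and with shGas41-2 alone. The whole list summed to between 39.5 and 326 CPM in shNT, 305 and 909 CPM in the KD, 38.8 and 74 CPM at day 0 and 0.122 and 0.348 CPM at day 6. The *Zscan4* and *Tdpoz* genes are near-identical copies, and the split of reads between them is uncertain. *Tdpoz3* rose from 0.18 to 1.48 CPM in the KD, and *Tdpoz4*, which was not called in EBs, rose from 0.078 to 1.43 CPM. The EB fall of *Tdpoz3* missed the threshold without library 2 of day 0 or library 2 or 3 of day 6 (edgeR, FDR 0.0698, 0.051 and 0.0547).

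Germline and meiosis genes moved alongside. Of 22 tested, 7 rose and none fell in the KD, and 2 rose and 13 fell in EBs, with medians of 0.80 and -1.71. Over all genes tested 7.58% rose in the KD and 15.1% fell in EBs. Between 0.1 and 1 CPM in the controls these shares were 15.4% and 23.5%. Between 6 and 8 rose in the KD under every alternative setting and with any library left out. *Dazl*, an RNA-binding protein of germ cells, *Smc1b*, the meiotic cohesin subunit, *Slc25a31* and *Stk31* rose in the KD and fell in EBs. *Smc1b* was at 3.81, 2.82 and 2.99 CPM in shNT, at 14.6, 12.7 and 8.87 CPM with shGas41-1 and at 10.9 and 8.57 CPM with shGas41-2, and went in EBs from 4.06 and 3.32 CPM (day 0) to 0.499 and 0.502 CPM (day 6). Its groups did not overlap in either experiment (edgeR, FDR 7.81e-05 in the KD and 4.44e-06 in EBs). *Dazl* rose from a mean of 5.06 to 15.6 CPM in the KD and fell from 9.18 to 0.766 CPM in EBs. *Mael*, of the piRNA pathway, rose only in the KD by the test of the difference (3.63 to 14.0 CPM; difference from the EB change, edgeR, FDR 0.000217). In EBs it went from 2.98 to 2.31 CPM, with an FDR of 0.333. *Rpl10l* and *Mov10l1*, also of the list, had EB log2 fold changes of -5.77 and -4.79 and KD changes of 0.0074 and -0.25.

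**Figure D4:**
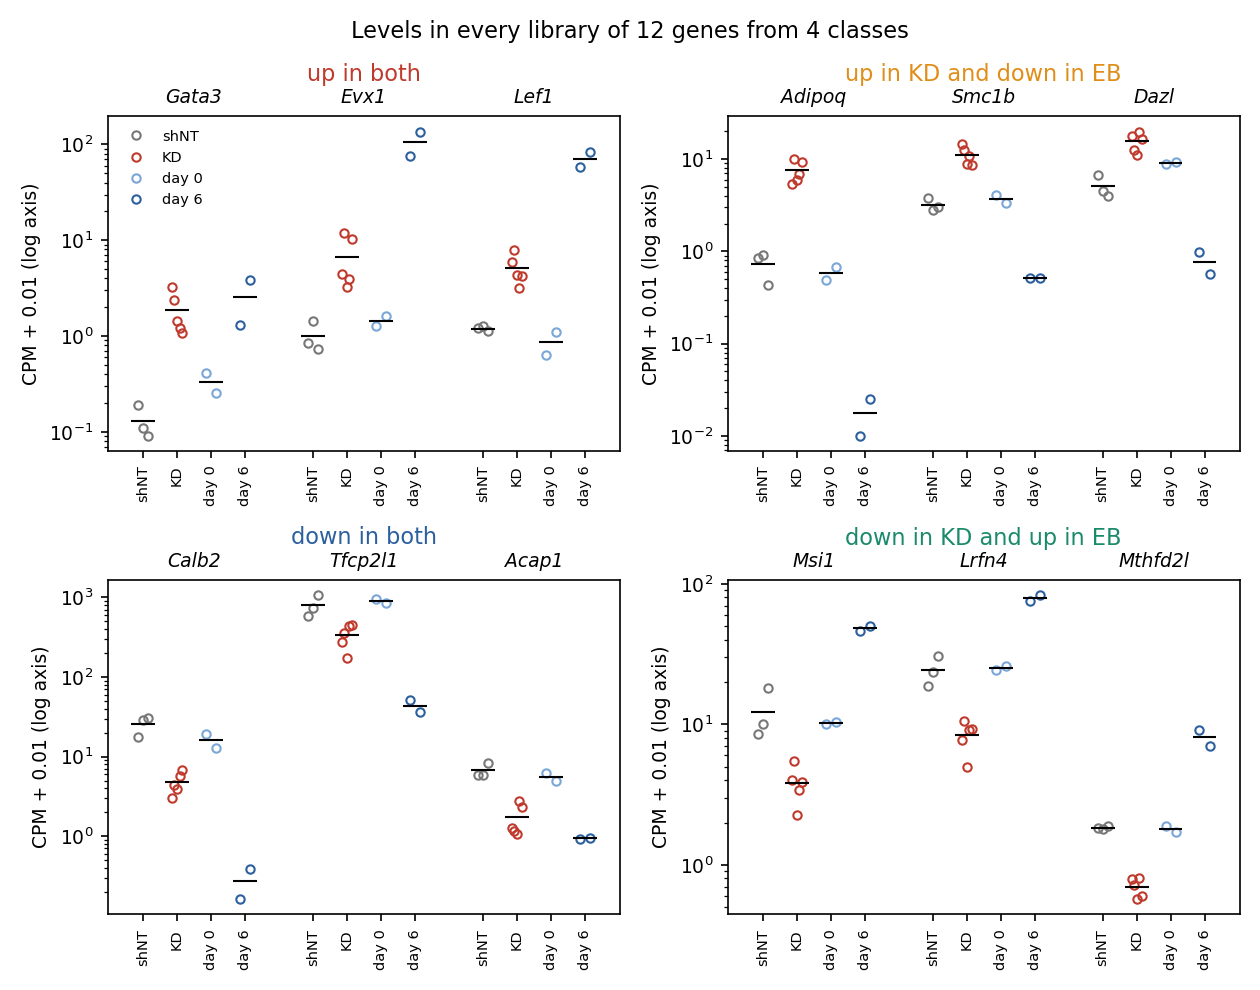
Each open point is a library and each line a group mean, for 3 genes of each of the 4 classes called in both effects, on a log axis of CPM plus 0.01. *Gata3*, *Evx1* and *Lef1* are higher in the KD and at day 6, *Adipoq*, *Smc1b* and *Dazl* are higher in the KD and lower at day 6, *Calb2*, *Tfcp2l1* and *Acap1* are lower in both, and *Msi1*, *Lrfn4* and *Mthfd2l* are lower in the KD and higher at day 6.

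The 2 classes raised in the KD also differed in what lies at their gene starts, a property that did not enter the calls. A window of 250 bases before to 50 bases after each annotated gene start was read from mm9 for 19526 of the 19613 genes tested. The windows of genes up in both held a median of 14 CpG dinucleotides, those of genes up in the KD and down in EBs a median of 4, and all genes tested a median of 15. Genes up in the KD alone and genes down in EBs alone lay between, with medians of 8 and 9. The letters TATAAA, searched on both strands, were in 15.1% of the windows of genes up in both, in 20.9% of genes up in the KD and down in EBs, and in 9.99% of all windows, beside 12.3% of genes up in the KD alone and 11.3% of genes down in EBs alone. Among genes under 1 CPM in the controls the shares of the 2 classes and of all windows were 13.3%, 23.4% and 13.0%, between 1 and 10 CPM 20.7% (12 of 58 genes), 12.4% (12 of 97) and 10.3%, and at 10 CPM or more 50.0% (3 of 6), 26.8% (11 of 41) and 7.99%, so the order of the 2 classes in TATAAA turned at 1 CPM. For CpG, among genes under 1 CPM in the controls the medians were 14 and 4 CpG, against 7 for all genes at that level. Between 1 and 10 CPM they were 15.5 and 6, against 14. At 10 CPM or more, 41 genes up in the KD and down in EBs had a median of 5, against 20 for all genes, and 6 genes were up in both. The 150 bases before the start of 2 genes of each class are shown, read 5′ to 3′ along the gene, with CpG in capitals. *Adipoq* and *Mgat4c* ranked first in their class by the smaller of the 2 changes. By that rank *Gbp2*, *Fat3* and *Cyp26a1* stood above *Gata3* and *Evx1*. *Gata3* and *Evx1* were taken because genes measured by RT-PCR precede those named by size. The choice thus differed between the classes, and the 4 stretches are examples only. The stretches lie at chr2:9811662-9811811 (*Gata3*, minus strand), chr6:52263342-52263491 (*Evx1*, plus strand), chr16:23146459-23146608 (*Adipoq*, plus strand) and chr10:101143971-101144120 (*Mgat4c*, plus strand) of mm9.
Gata3: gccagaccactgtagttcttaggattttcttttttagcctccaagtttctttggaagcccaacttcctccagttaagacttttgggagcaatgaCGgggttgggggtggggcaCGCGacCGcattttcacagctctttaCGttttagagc
Evx1: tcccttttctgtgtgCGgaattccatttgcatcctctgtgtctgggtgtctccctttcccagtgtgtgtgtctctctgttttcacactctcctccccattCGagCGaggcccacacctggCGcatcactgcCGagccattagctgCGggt
Adipoq: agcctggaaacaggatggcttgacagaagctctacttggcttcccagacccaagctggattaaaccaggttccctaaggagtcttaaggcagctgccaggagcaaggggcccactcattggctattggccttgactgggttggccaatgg
Mgat4c: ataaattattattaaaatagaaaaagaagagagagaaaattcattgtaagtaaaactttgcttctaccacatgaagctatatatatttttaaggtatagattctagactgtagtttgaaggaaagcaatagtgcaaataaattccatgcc
The stretches of *Gata3* and *Evx1* hold 5 and 6 CpG and those of *Adipoq* and *Mgat4c* hold none, and TATAAA is in none of the 4.

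The classes differed in gene type as well. Protein-coding genes made up 94.9% of the genes up in both, 71.3% of those up in the KD and down in EBs that carry an annotation (373 of 392), and 82.9% of all annotated genes tested. Pseudogenes made up 1.43% and 12.1% of the 2 classes, and 8.48% of all. Noncoding genes (annotated as lincRNA, antisense, processed transcript, sense intronic or sense overlapping) made up 3.71% and 15.5%, and 6.74% of all. Genes up in the KD alone and genes down in EBs alone were again between, with 79.4% and 79.3% protein-coding and 14.4% and 13.5% noncoding genes. Genes down in the KD and up in EBs were on the X chromosome in 9 of 74 cases (12.2%, against 4.59% of all), and genes down in both in 10 of 115 (8.70%).

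The 115 genes lowered in both had a median KD change of -1.27 and a median EB change of -2.82 on the log2 scale. Their median level was 2.81 CPM in shNT and 1.02 CPM in the KD, against 2.73 CPM at day 0 and 0.318 CPM at day 6. In 111 of them the KD mean stayed above the day 6 mean. *Calb2*, the calcium-binding protein calretinin, led this class, at 17.5, 29.2 and 30.4 CPM in shNT, at 3.00, 4.35 and 3.85 CPM with shGas41-1 and at 5.66 and 6.84 CPM with shGas41-2. It went in EBs from 19.3 and 12.7 CPM (day 0) to 0.151 and 0.38 CPM (day 6). The groups did not overlap (KD -2.44 ± 0.27, edgeR, FDR 7.81e-05; EB -5.90 ± 0.51, edgeR, FDR 8.28e-07). *Zmynd15*, a repressor of male germ cells, had log2 fold changes of -2.02 in the KD and -2.05 in EBs. *Acap1*, a GTPase-activating protein for ARF6, had changes of -1.96 and -2.57. The X-linked *Xlr5a* and *Xlr5b*, members of a family of near-identical copies, fell by 1.98 each in the KD, and *Fmr1nb*, also on the X chromosome, fell by 1.84.

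The 74 genes lowered in the KD and raised in EBs had medians of -1.20 and 1.75. *Msi1*, an RNA-binding protein of neural progenitors, was at 8.57, 9.97 and 18 CPM in shNT, at 3.98, 5.48 and 2.25 CPM with shGas41-1 and at 3.42 and 3.89 CPM with shGas41-2. It went in EBs from 10.1 and 10.3 CPM (day 0) to 46.3 and 49.8 CPM (day 6), with no overlap of groups in either experiment. *Lrfn4* and *Lhfpl4*, proteins of neuronal synapses, went from 24.3 to 8.34 CPM and from 1.84 to 0.682 CPM in the KD, and to 78.9 and 13.1 CPM in EBs. *Jph3*, a junctophilin, and *Mthfd2l*, a mitochondrial folate enzyme, rose to 15.8 and 8.10 CPM in EBs and fell to 1.21 and 0.687 CPM in the KD, *Jph3* by 0.92 on the log2 scale without shNT library 3, short of the fold threshold. *Lefty2*, a secreted inhibitor of Nodal, was at 15.2, 25.8 and 67.2 CPM in shNT and between 6.84 and 20.8 CPM in the KD, so these groups overlapped. Its KD change of -1.74 had an FDR of 0.016 (edgeR), and of 0.179 without shNT library 3. *Nkx1-2*, a homeobox factor of the posterior streak, was the only gene of the streak and mesoderm list in this class, at 1.09 CPM in shNT and 0.513 CPM in the KD, and at 26.0 CPM at day 6.

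The pluripotency network separated the 2 effects. Of 16 naive pluripotency genes, 15 fell in EBs and none rose, with a median of -3.81. In the KD 1 rose and 1 fell, with a median of -0.0514, and the difference between the effects passed the test for all 16. *Tfcp2l1*, a transcription factor of the naive network, was the gene that fell in both. It was at 586, 738 and 1070 CPM in shNT, at 272, 360 and 173 CPM with shGas41-1 and at 434 and 457 CPM with shGas41-2, and went in EBs from 949 and 857 CPM (day 0) to 50.8 and 36.5 CPM (day 6). Every KD library was below every shNT library, by a log2 fold change of -1.23 ± 0.26 (n = 5 against 3; edgeR, FDR 0.00521), and the change was -0.97 without shNT library 3 and -0.84 with shGas41-2 alone, short of the fold threshold. *Klf4*, another factor of the network, was at 257 CPM in shNT, 134 CPM in the KD, 262 CPM at day 0 and 5.33 CPM at day 6. Its KD change of -0.93 (edgeR, FDR 0.00196) did not reach the fold threshold, but *Klf4* was called without shNT library 1 (-1.01), shNT library 2 (-1.01) or library 1 of shGas41-2 (-1.03) and with shGas41-1 alone (-1.15). The falls of naive genes in the KD numbered 2 in each of the first 3 of these settings and 3 in the last, and none without shNT library 3 or with shGas41-2 alone. *Dppa3*, a maternal factor also made in germ cells, rose in the KD from 0.344 to 1.82 CPM and was at 0.482 and 0.326 CPM in EBs, with its KD rise short of the threshold with shGas41-2 alone (edgeR, FDR 0.0585).

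Of 10 core pluripotency genes, none was called in the KD (median 0.0564), and 5 fell and 1 rose in EBs (median -0.89). *Pou5f1*, which encodes Oct4, was at 1300 CPM in shNT and 1370 CPM in the KD, and at 1080 and 864 CPM at day 0 and day 6, and was called in neither. *Nanog* was at 832, 711 and 698 CPM in shNT and between 674 and 940 CPM in the KD, overlapping ranges, and fell from 691 and 740 CPM to 364 and 261 CPM in EBs (by 0.97 on the log2 scale without library 3 of day 6, short of the fold threshold). *Sox2* was at 440 and 365 CPM in shNT and the KD, and fell from 500 to 133 CPM in EBs. The KD log2 fold changes were 0.08 ± 0.11 for *Pou5f1*, 0.14 ± 0.13 for *Nanog* and -0.27 ± 0.14 for *Sox2*. The differences from the EB change passed the test for *Sox2* and *Nanog*, and for *Pou5f1* it did not (edgeR, FDR 0.101). Of 11 genes of LIF and Jak-Stat signalling, none was called in the KD, and 5 fell and 2 rose in EBs. Among them *Socs3*, a feedback inhibitor that Stat3 induces, was at 165 and 126 CPM in shNT and the KD, and fell by 4.25 on the log2 scale in EBs.

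**Figure D5:**
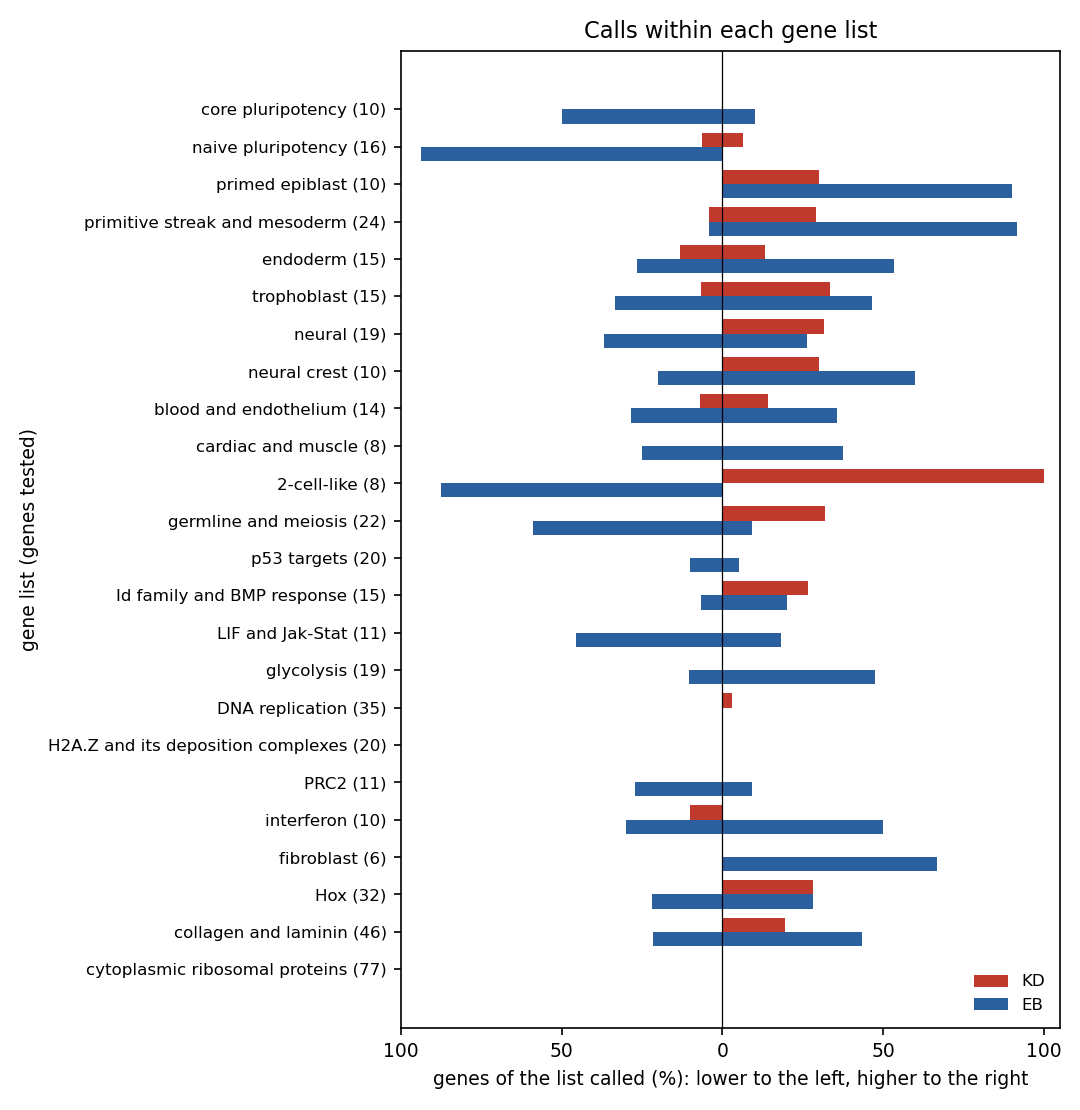
For each gene list, with the number of genes tested in brackets, bars give the percentage of its genes called in the KD (red) and in EBs (blue), to the right for rises and to the left for falls. Naive pluripotency genes are called almost only in EBs, 2-cell-like genes point in opposite directions, and the 77 ribosomal protein genes and the 20 genes of H2A.Z deposition (a list without *Yeats4*) are called in neither.

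Some lineage genes were called in both effects. Over all genes tested 7.58% rose in the KD and 15.6% in EBs. The KD share was 15.4% between 0.1 and 1 CPM and 27% under 0.1 CPM in the controls, the latter raised by the filter on low counts. Of 10 primed epiblast genes, 9 rose in EBs (median 3.12) and 3 rose in the KD (median 0.25), which were *Fgf5*, *Lef1* and *Sox3*, all up in both. Of 24 primitive streak and mesoderm genes, 22 rose in EBs (median 5.36) and 7 rose in the KD (median 0.82), and 6 were up in both. These were *Evx1*, *Fgf8*, *Meis2*, *Msx1*, *Msx2* and *Snai1*. The remaining KD rise was *Meis1*, a Hox cofactor, which was at 0.795 CPM in shNT and 2.77 CPM in the KD and went from 1.15 to 1.30 CPM in EBs (edgeR, FDR 0.682). The early streak factors *Mixl1* and *Mesp1* rose to 447 and 55.3 CPM in EBs, while in the KD *Mixl1* was at 1.03 CPM against 1.22 CPM in shNT and *Mesp1* at 0.256 against 0.196 CPM. Their KD log2 fold changes were -0.23 ± 0.28 and 0.36 ± 0.57, and the streak genes that rose in the KD were thus a minority of those that rose in EBs. Without shNT library 3 the KD rises numbered 1 primed epiblast gene and 3 streak and mesoderm genes, without shNT library 1 they numbered 4 of the latter, and with shGas41-2 alone 3.

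The counts of the next lists stand beside 7.58% up and 1.73% down in the KD and 15.6% up and 15.1% down in EBs over all genes, and genes at low level had higher shares, as given above. Of 15 endoderm genes, 2 rose and 2 fell in the KD and 8 rose and 4 fell in EBs, with *Foxa1* and *Gata6* up in both. *Gata6*, a factor of primitive endoderm, went from 0.195 to 0.539 CPM in the KD (edgeR, FDR 0.0399). It lost its call without any one of the shNT libraries and without library 1 or 2 of shGas41-1 (edgeR, FDR 0.0775 and 0.0771). The call was also lost on halved counts and with shGas41-2 alone (edgeR, FDR 0.0737 and 0.311). Of 15 trophoblast genes, 5 rose and 1 fell in the KD and 7 rose and 5 fell in EBs. *Gata3*, *Cdx2* and *Gcm1* were up in both, and *Tead4*, an upstream factor of trophectoderm, was down in both, from 14.5 to 5.73 CPM in the KD and from 16.2 to 4.52 CPM in EBs. Among 10 neural crest genes, 3 rose in the KD and 6 rose and 2 fell in EBs, with *Sox9* and *Ets1* up in both. Of 14 blood and endothelial genes, 2 rose and 1 fell in the KD, and of 8 cardiac and muscle genes none was called in the KD, while 3 rose and 2 fell in EBs. Without shNT library 3 the KD rises were 1 endoderm, 3 trophoblast and 1 neural crest gene, and with shGas41-2 alone they were 1, 3 and none. The endoderm rises numbered none without shNT library 2 and 1 without library 1, library 2 of shGas41-1 or either day 0 library. The trophoblast rises numbered 3 without library 2 of shGas41-1 and without either day 0 library. Without library 3 of day 6 the EB rises were 3 blood and endothelial genes and 1 cardiac and muscle gene, with 4 falls in the latter list, which in most of the other settings had 1 fall, and without library 2 of day 6 the EB falls were 3 trophoblast genes.

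Neural genes showed little common ground. Of 19 tested, 6 rose in the KD (median 0.73), and 5 rose and 7 fell in EBs (median -0.11). Only *Dll1*, a Notch ligand, was up in both. *Pax6*, *Neurog1* and *Nkx2-2*, transcription factors of neural progenitors, were raised in the KD alone, *Nkx2-2* with an FDR of 0.0617 without shNT library 3 (edgeR). *Pax6* was at 3.61, 1.63 and 1.23 CPM in shNT, at 10.0, 11.0 and 13.3 CPM with shGas41-1 and at 4.99 and 4.62 CPM with shGas41-2, and went in EBs from 2.17 and 2.79 CPM (day 0) to 3.51 and 1.61 CPM (day 6). The KD libraries were all above the controls, and the day 0 and day 6 ranges overlapped (edgeR, FDR 0.00538 and 0.952). With shGas41-2 alone 1 neural gene was called as raised. *Neurog3*, which specifies endocrine precursors, rose in the KD and fell in EBs.

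The genes raised in the KD alone had a median KD log2 fold change of 1.67 and a median EB change of -0.72. *Id2*, an inhibitor of basic helix-loop-helix factors, was at 5.38, 6.95 and 4.26 CPM in shNT, at 53.7, 46.6 and 57.3 CPM with shGas41-1 and at 19.9 and 23.8 CPM with shGas41-2. It went in EBs from 12.0 and 11.4 CPM (day 0) to 25.2 and 18.9 CPM (day 6). The KD log2 fold change was 2.86 ± 0.35 (n = 5 against 3; edgeR, FDR 0.000158) and that in EBs 0.91 ± 0.42 (n = 2 against 2; edgeR, FDR 0.092). *Gadd45g*, a stress and differentiation response gene, rose from 0.317 to 3.00 CPM in the KD and was at 0.35 and 0.576 CPM in EBs. *Id3* and the BMP antagonist *Nog* rose in the KD as well, 4 of 15 genes of the Id family and BMP response in all, none of them called in EBs. Without shNT library 3, or with shGas41-2 alone, 2 of the 15 rose. The call of *Nog* was lost without shNT library 1 or 3 (edgeR, FDR 0.0928 and 0.127), without library 2 of either KD shRNA (0.0525 and 0.0542) and with shGas41-1 or shGas41-2 alone (0.0781 and 0.0729).

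*Coch*, which encodes the secreted protein cochlin, led the genes raised in the KD with an EB change near 0, at 3.11, 4.63 and 1.90 CPM in shNT, at 24.8, 35.6 and 30.5 CPM with shGas41-1 and at 10.7 and 17.2 CPM with shGas41-2. In EBs it was at 4.23 and 7.21 CPM and then at 7.90 and 7.97 CPM. *Popdc3*, a cAMP-binding membrane protein, *Limch1*, *Fam83a* and *Nlrc4*, an inflammasome sensor, followed with KD log2 fold changes of 2.64, 2.32, 2.21 and 2.13. *Cdh5*, the adhesion protein of endothelial cells, rose by 3.04 in the KD and by 0.02 in EBs. *Pola1*, the catalytic subunit of DNA polymerase alpha, was the 1 gene of 35 in DNA replication that was called, at 135 CPM in shNT and 320 CPM in the KD, and its EB change was -0.80. Genes lowered in the KD alone included *Dnajc22*, a J-domain protein (6.29 to 1.39 CPM), *Gmfg* (1.73 to 0.559 CPM) and *H2afy2*, the histone variant macroH2A2 (41.2 to 13.9 CPM). Their EB log2 fold changes lay between 0.07 and 0.46.

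Hox genes split between the classes. Of 32 tested, 9 rose and none fell in the KD, and 9 rose and 7 fell in EBs, with medians of 0.81 and 0.22. Without shNT library 3, or with shGas41-2 alone, 4 rose in the KD, and without library 2 of day 0 or library 3 of day 6, 5 and 3 rose in EBs. *Hoxa13*, *Hoxb4*, *Hoxd1* and *Hoxd9* were up in both, *Hoxa10* and *Hoxd10* were up in the KD and down in EBs, and *Hoxd11* and *Hoxd12* were up in the KD alone. *Hoxb1*, the anterior gene of its cluster, went from 0 counts at day 0 to 1825 at day 6, at least 648-fold higher against a floor of 3 counts over the group, and its KD change was not called (edgeR, FDR 0.172). *Hoxd10* went from 0.0742 to 0.654 CPM in the KD and from 10 counts to 0 in EBs. Its EB fall missed the threshold on halved counts (edgeR, FDR 0.0891) and without library 2 of day 0 or library 2 or 3 of day 6 (edgeR, FDR 0.0736, 0.0829 and 0.0883). The EB rise of *Hoxa13* missed it without library 2 of day 0 or library 3 of day 6 (edgeR, FDR 0.0522 and 0.0613).

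Genes changed in EBs alone included large effects with no KD counterpart. *Lzts1* rose from 2 to 3262 counts, and in the KD it was at 0.0596 CPM against 0.0614 CPM in shNT. The immunoproteasome subunit *Psmb8* rose from 3 to 1262 counts, at 0.0826 and 0.0802 CPM in the KD and shNT. *Shisa6*, which associates with AMPA receptors, reached 10.7 CPM at day 6, and was at 0.0576 CPM in the KD. *Rhox10*, of a reproductive homeobox cluster on the X chromosome, fell from 313 counts to 0, at least 97.9-fold lower, and was at 2.82 CPM in the KD against 2.39 CPM in shNT. *Pabpc6* fell from 193 counts to 0, at least 60.4-fold lower, and *RP23-425D13.3* from 121 to 0, at least 37.9-fold lower. The serpin *Serpinb6c* fell from 881 counts to 1, and *Myo1f*, a myosin, from 27.3 to 0.0758 CPM, with KD changes of 0.09 and -0.08.

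Metabolic and chromatin lists were called in EBs or in neither. Of 19 glycolysis genes, 9 rose and 2 fell in EBs (median 0.99) and none was called in the KD (median -0.26). *Hk1* was called as lowered in the KD with shGas41-1 alone (-1.25), without shNT library 1 (-1.04) and without library 1 or 2 of shGas41-2 (-1.05 and -1.04). *Slc2a1*, the glucose transporter, rose by 1.61 in EBs and had a KD change of -0.72. *Aldoc*, an aldolase, rose by 3.00 in EBs and had a KD change of -0.63. Of 20 p53 targets, none was called in the KD (median 0.20), and 1 rose and 2 fell in EBs. Without library 3 of day 0, 2 rose and none fell in EBs. *Cdkn1a*, the cell cycle inhibitor p21, was at 52.8 CPM in shNT and 31.9 CPM in the KD. *Pmaip1*, a BH3-only cell death gene, had a KD change of -0.98 and was called as lowered without shNT library 1 or 2, without library 1 of shGas41-2 and with shGas41-1 alone. Of 20 genes of H2A.Z and its deposition complexes, a list without *Yeats4* itself, none was called in either effect. *Epc1* and *Kat5*, subunits of the Tip60 complex to which Gas41 belongs, had the largest KD changes, 0.56 and -0.53. Of 11 PRC2 genes, none was called in the KD, and *Eed*, *Jarid2* and *Phf19* fell and 1 rose in EBs. None of 77 cytoplasmic ribosomal protein genes was called in either, with medians of 0.35 and 0.29 log2, and their summed level was between 61000 and 72400 CPM in shNT and between 76300 and 110000 CPM in the KD.

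Matrix, interferon and fibroblast lists were set beside these as markers of other cells. Of 46 collagen and laminin genes, 9 rose in the KD and 20 rose and 10 fell in EBs, with *Col14a1*, *Col27a1* and *Lama4* up in both. The KD rises numbered 5 without shNT library 2, 4 without library 3 and 3 with shGas41-2 alone. Of 10 interferon genes, *Ifit3* fell in both, and 5 rose and 3 fell in EBs. The KD fall of *Ifit3* missed the threshold without shNT library 2 and with shGas41-2 alone (edgeR, FDR 0.157 and 0.155), and its EB fall without library 2 of day 0 or library 2 or 3 of day 6 (edgeR, FDR 0.0886, 0.119 and 0.054). None of 6 fibroblast genes was called in the KD, and 4 rose in EBs. *Fn1* was called as lowered in the KD without shNT library 1 (-1.13) and without library 1 or 2 of shGas41-1 (-1.03 and -1.08). With shGas41-1 alone 1 gene of the 6 was called as lowered. The fibroblast list summed to between 418 and 656 CPM in shNT, 193 and 367 CPM in the KD, 545 and 682 CPM at day 0, and 858 and 2250 CPM at day 6. Its matrix gene *Col1a2* averaged 0.108 CPM in shNT and 0.17 CPM in the KD.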

How the data were processed

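RNA-seq counts of 12 libraries were analysed; the 15 ChIP-seq samples of the series were not used. Per the labels and the methods, the authors aligned TruSeq reads with TopHat2 (2.0.10) to the mm9 genome and transcriptome and counted reads per gene with HTSeq. The deposited counts are whole and not normalized. The deposited log2 fold changes, p-values and FDR of the authors' own comparisons were not used. No strand-specific counting is stated, so overlapping and antisense genes cannot be told apart.

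The 3 tables were joined on the Ensembl identifier (23494 genes). The 3 shNT columns were equal in both KD tables and counted once. The columns named ESC were read as EB day 0. Genes were filtered with filterByExpr (minimum count 10, minimum total 15), which left 19613, libraries were scaled by TMM, and a single model with 4 groups was fitted in edgeR 4.0.16 (R 4.3.3), with quasi-likelihood tests of the KD effect, the EB effect and their difference. SE is the absolute log2 fold change divided by the root of F. Fold changes in the text are on edgeR's log2 scale, and CPM are TMM-scaled. Counting intervals are exact binomial intervals, which cover counting error only. Gene starts and types came from the GENCODE vM1 annotation of mm9. On simulated counts over 19184 genes, 200 were changed in the KD and 200 in EBs, all at a mean of 1 CPM or more. The fit found 98% of changed genes in the KD, 94% in EBs and 81.3% for the difference. False calls were 2.49%, 2.59% and 3.48%. No gene under 1 CPM was changed, so recovery at that level was not measured. In shNT 83.7% of the genes up in both and 63% of those up in the KD and down in EBs were under 1 CPM.

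The members and the 24 lists were chosen with earlier results of these data known. Named genes are *Yeats4*, 12 genes the study measured by RT-PCR, the 6 genes with the largest smaller change in each class called in both, the 5 with the largest change in each class called in 1 with the other change under 0.5 (both with a mean of 1 CPM or more over the 12 libraries, and without clone names), and in each list up to 3 by KD and 2 by EB change. Other list members are named by class, and 3 of the genes these rules give are not reported here. The alternatives were the union of the tables (27080 genes), no filter, RLE scaling, DESeq2 1.42.0, separate fits, a replicate block, each shRNA alone, each library left out and, chosen after seeing the data, halved counts.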

Additional observations from a re-analysis of the deposited data

Results flagged for a closer look

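For each of 141 named genes, the 5 KD libraries were searched for a library far from the other 4 (its gap to the nearest, as a share of the range, above the 95% critical value for 5 samples). Such a library was found for 6 genes, and chance alone flags about 1 group in 20. Library 3 of shGas41-1 stood above the others for 2 ribosomal protein genes, with *Rpl12* at 2710 CPM (others 1630 to 1840) and *Rps12* at 728 CPM (others 363 to 455). Neither was called in the KD. Library 1 of shGas41-2 stood above the others for *Fmr1nb*, at 1.03 CPM (others 0.44 to 0.57), still below all shNT libraries. It was also the only KD library with counts of *Msgn1*, at 0.0746 CPM. *Gcm1* was at 1.33 CPM in library 1 of shGas41-1 (others 0.362 to 0.641), and *Col9a1* at 0.101 CPM in library 2 of shGas41-1 (others 0 to 0.0164).

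The 2 shRNAs were compared directly in edgeR. *Id2* was higher with shGas41-1 by 1.26 ± 0.20 on the log2 scale (FDR 0.0487), and it was above every shNT library in all 5 KD libraries. Over all 19613 genes, 15 had an FDR of 0.05 or less and 1527 an unadjusted p under 0.05. *Yeats4* itself differed by -0.96 ± 0.16 (FDR 0.0586). The part of the remaining *Yeats4* level in the *Id2* difference was not tested.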

How the results depend on the processing

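The counts of genes called in the KD, in EBs, in both and in 1 of them stayed within 1.5 times their value with the union of the tables, without the low-count filter, with RLE scaling, with DESeq2, with separate fits of the 2 experiments and on halved counts. Separate fits give no test of the difference and hence no counts of genes changed alone. With shGas41-2 alone, 775 genes rose and 199 fell in the KD, 161 were up in both, 42 down in both, 246 up in the KD and down in EBs, and 296 up in the KD alone. With shGas41-1 alone, 516 fell in the KD, 199 were down in both and 147 down in the KD alone. These fits hold fewer KD libraries (2 and 3 against 5). Leaving out 1 library at a time gave 232 to 384 genes up in both, 248 to 442 up in the KD and down in EBs, 38 to 112 down in the KD and up in EBs, 93 to 151 down in both, 62 to 119 down and 336 to 524 up in the KD alone, 1014 to 1540 rises and 230 to 435 falls in the KD. The lowest count up in both came without shNT library 3, and the cause was not tested. No call of a named gene changed sign under any of these settings.

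The replicate numbers were not treated as pairs. Deviations of same-numbered libraries correlated between -0.31 and 0.27 in the KD experiment and at 0.056 in the EB experiment. With the replicate block, 1378 genes rose and 335 fell in the KD, 309 were up in both, 3 of 15 trophoblast genes rose in the KD (5 without it), and 383 genes were up in the KD and down in EBs. The EB falls of *Hoxd10* and *Dub1a* missed the threshold with it (edgeR, FDR 0.0541 each). Depth limits genes near 3 counts, whose ratios are bounds or wide intervals.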
